A study of Gallus gallus with 6 samples.

Results

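Cells carry receptors on their surface that sense extracellular nucleotides and adenosine. ATP and ADP leave stressed or dying cells. ATP opens P2X ion channels, and both bind P2Y receptors that signal through G proteins. Ectoenzymes break the nucleotides down to adenosine, which has receptors of its own. In the ascites of ovarian tumours this signalling runs between tumour cells, macrophages and other leukocytes, where nucleotides draw in phagocytes and adenosine dampens immune responses.

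The transcripts of 10 genes named as such receptors, of 16963 genes in the deposited tables, were followed here in chicken ovarian cancer cells. They are the P2Y receptors P2RY1, P2RY6, P2RY8 and P2RY13, the P2X channels P2RX1, P2RX4 and P2RX7, and the adenosine receptors ADORA1, ADORA2B and ADORA3. These 10 genes were taken by name, and they were chosen on their values in the same comparison of ALDH+ with ALDH- cells that is described here, so their values in it are a description. Where the number of them past a threshold in that comparison is given, nothing is read from it. It stands beside the share or number of all genes, except for a count before adjustment. They are not the whole family. Of 21 purinergic and adenosine receptor genes listed, 17 are named in the tables, and the other 7 named ones are tested further on.

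The cells are COVCAR cells, adherent cultures of ovarian adenocarcinoma grown from chicken ascites. ALDH activity is used as a mark of stem-like tumour cells, and FACS divided each of the 3 primary lines C27, C29 and C30 into an ALDH+ and an ALDH- fraction, with 1 library for each fraction and line (3 libraries per group). Both fractions of a line had the same culture on gelatin to full confluence and the same trypsin treatment, and how old the birds were is not stated there. The lines are primary cultures rather than clones, and nothing in the labels says how pure the tumour cells were. The p-values below measure only the spread between these 6 samples. The main edgeR test of ALDH+ against ALDH- treats them as unpaired, though both fractions of a line share a culture. Fits with the line as a block are named as such, and more genes pass in them.

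The libraries held 22170788 to 26747453 estimated counts each. Levels are given as CPM, counts scaled to a common library size with TMM factors, and, where genes are compared with each other, as TPM, which also corrects for transcript length. Fold changes are log2 of ALDH+ over ALDH-, with the standard error (SE). Leukocyte markers moved with the ALDH fraction. Of 23 macrophage and monocyte markers 20 fell in ALDH+ cells, with a summed level of 344 to 606 CPM in ALDH+ libraries and 7704 to 15060 CPM in ALDH- libraries and a median log2 change of -4.95. Among those that fell, TIMD4 had 5, 2 and 2 and CD14 13, 4 and 6 counts in ALDH+ cells of C27, C29 and C30. These genes passed the filter on low counts only with the help of their ALDH- libraries. SPI1, the transcription factor that drives the myeloid lineage, averaged 8.36 ± 2.01 CPM in ALDH+ and 266 ± 96.3 CPM in ALDH- cells (SD, n = 3 each), a log2 change of -4.99 (SE 0.37, edgeR adjusted p = 0.0011). LAPTM5 (-4.95) and LCP1 (-5.25), which are also expressed in other leukocytes, fell to a like degree. Of 7 lymphocyte markers tested 4 fell, with sums of 17.7 to 35.9 CPM in ALDH+ and 171 to 448 CPM in ALDH- libraries. PAX5, the B cell factor, was at 0 in every library, and CD4, CD8A, ZAP70 and CD79B had at most 10 counts in any. The 3 lymphocyte markers with the smallest p were IKZF1 (-4.96), BLK (-5.42) and PTPRC (-3.32), of which IKZF1 and PTPRC are found in most leukocytes. CD5, which T cells carry, also fell (-5.34, SE 1.04, edgeR adjusted p = 0.021). It had 0, 2 and 0 counts in ALDH+ cells of C27, C29 and C30, against 47, 12 and 31 in the ALDH- libraries. It thus passed the filter on low counts only through its ALDH- libraries. The T cell genes CD3D (-0.58, adjusted p = 0.531), LCK (-0.19, adjusted p = 0.839) and CD3E (1.29, adjusted p = 0.197) did not pass, and CD3E was higher in ALDH+ in all 3 lines. Of 7 heterophil, mast cell and thrombocyte markers 5 fell: CSF3R (-4.78), TAL1 (-4.92), KIT (-4.65), LYZ (-6.67) and S100A12 (-6.67). KIT had 3, 4 and 1 counts and TAL1 29, 21 and 8 in ALDH+ cells of C27, C29 and C30. Both passed the filter on low counts only with the help of their ALDH- libraries. With 1 library left out, the edgeR adjusted p reached 0.0538 for LYZ and 0.0725 for S100A12, past the threshold. GATA2 (1.00, adjusted p = 0.177) and ITGB3 (0.85, adjusted p = 0.391) did not pass and were higher in ALDH+ in all 3 lines. The sums were 219 to 581 CPM in ALDH+ and 775 to 6551 CPM in ALDH- libraries, and S100A12 made 5596 CPM of the highest, that of ALDH- C30. Of 11 fibroblast markers none passed the edgeR test, 3 had an unadjusted p under 0.05 (LUM, PDGFRB and PDGFRA), DESeq2 called 1 higher, and with the line as a block 3 rose. Their sums were 21270 to 52090 CPM in ALDH+ and 14210 to 37640 CPM in ALDH- libraries. Of 8 epithelial, ovarian and mesothelial markers 2 fell, AVD (-5.20) and CDH1 (-4.08), and KRT18 (1.35) missed the threshold. CDH1 had 7.88, 3.99 and 49.5 CPM in ALDH- cells of C27, C29 and C30. Its edgeR adjusted p reached 0.1495 with 1 library left out. With the block 3 of these 8 rose and 2 fell. The sum was 1552 to 3773 CPM in ALDH+ and 16900 to 38310 CPM in ALDH- libraries. Most of the ALDH- sum was AVD, so the sum does not stand for the list. KRT7 (0.64), KRT18 (1.35), WT1 (1.25) and PGR (1.02) were higher in ALDH+ in all 3 lines. None of these passed edgeR without the block (adjusted p = 0.0687 to 0.543). MSLN (0.04) and EPCAM (0.18) were mixed between lines. EPCAM, the epithelial surface marker, was low in both, at 0.992 ± 0.766 CPM in ALDH+ and 0.885 ± 0.853 CPM in ALDH- cells (SD, n = 3 each). The only endothelial marker tested, PECAM1, which leukocytes and thrombocytes also carry, fell (-2.98). The part of these cell types in the receptor values was not tested. In bulk RNA, fewer cells of a type and less RNA per cell cannot be told apart.

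Of the 10 receptors, 5 were lower in every ALDH+ library than in any ALDH- library: P2RY6, P2RY8, P2RY13, P2RX1 and ADORA3. Over all 12811 genes tested, 14.6% showed this. P2RX4 joined them among the 6 that were lower in ALDH+ in all 3 lines, which held for 27.7% of all genes. By edgeR 4 of the 9 receptors that passed the filter on low counts, P2RY6, P2RY8, P2RY13 and ADORA3, were past the threshold of an adjusted p under 0.05, against 5.3% of all genes called lower. None of the 9 was called higher by edgeR, against 0.835% of all genes. Before adjustment 0 were higher at p under 0.05, a cut for which no share of all genes is given. DESeq2 called 5 lower, with P2RX1 as the fifth, and 0 higher. Over 16002 genes DESeq2 called 1029 lower and 626 higher. With the line as a block edgeR called 5 lower, with P2RX4 as the fifth, against 7.6% of all genes, and 0 higher against 5.92%. The median log2 change of the 9 was -3.08, beside 0.00 for all genes. P2RX1, P2RX7 and ADORA3 passed the filter through their ALDH- libraries, and ADORA1 did not pass it.

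**Figure D1:**
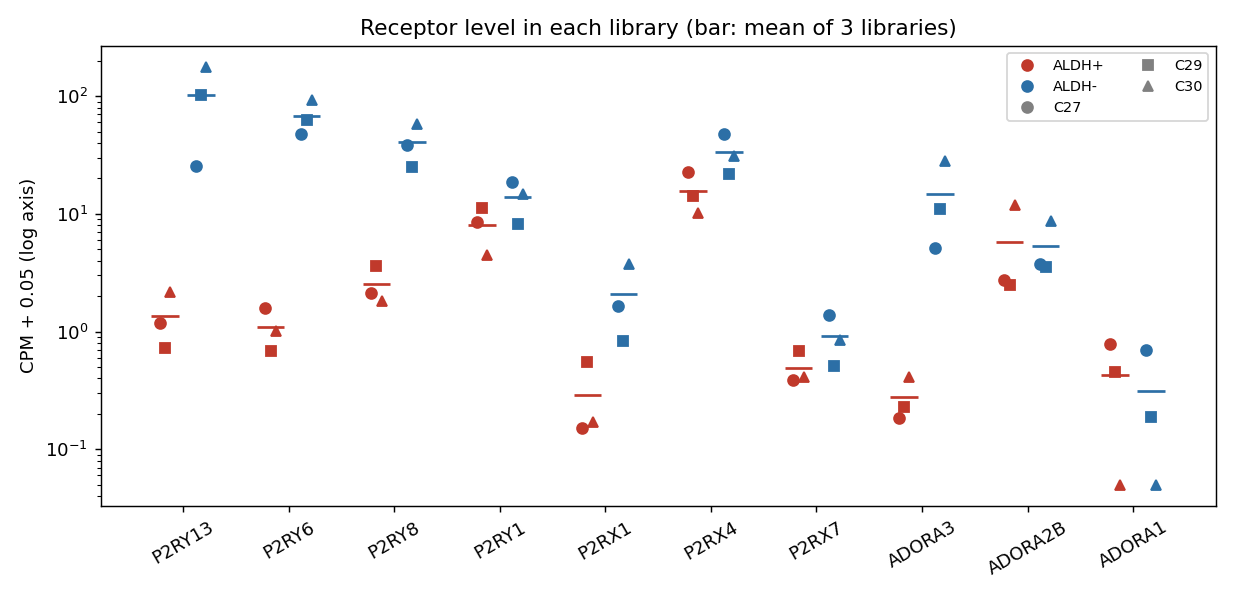
Level of each receptor in each library, as CPM + 0.05 on a log axis, with ALDH+ libraries in red on the left and ALDH- libraries in blue on the right of each pair, marker shapes for the lines and a bar at the mean of 3 libraries. P2RY13, P2RY6, P2RY8, P2RX1 and ADORA3 do not overlap between the groups, while P2RX7, ADORA2B, P2RY1, P2RX4 and ADORA1 do.

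Among the P2Y receptors, P2RY13 (ENSGALG00000039432), a receptor for ADP that couples to inhibitory G proteins and is found on mammalian microglia and macrophages, differed by a factor that varied widely between lines. It had 1.14, 0.677 and 2.10 CPM in ALDH+ cells of C27, C29 and C30, against 25.6, 103 and 177 CPM in the ALDH- libraries of the same lines. The ALDH+ libraries were all low, and among the ALDH- libraries C27 was several times lower than C29 and C30. The mean was 1.31 ± 0.725 CPM in ALDH+ and 102 ± 75.9 CPM in ALDH- cells (SD, n = 3 each), a log2 change of -6.28 (SE 0.81). Within the lines the ALDH- level was 22.5 times the ALDH+ level in C27, 152 times in C29 and 84.5 times in C30.

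P2RY6 (ENSGALG00000017327), which in mammals binds UDP and acts in microglial phagocytosis, had 1.54, 0.632 and 0.969 CPM in ALDH+ cells of C27, C29 and C30, against 47.4, 62.4 and 93.2 CPM in the ALDH- libraries. The groups did not overlap, and the ALDH- level of P2RY6 varied less between lines than that of P2RY13. Its log2 change was -5.99 (SE 0.46). The ALDH- level was 30.7 times the ALDH+ level in C27, 98.7 times in C29 and 96.2 times in C30.

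The counts of P2RY6 came from 2 transcripts. The one with fewer counts (ENSGALT00000100424) had 0 counts in all 3 ALDH+ libraries and 450 in the ALDH- libraries together. It made up 4.25%, 4.91% and 17.6% of the gene's counts in C27, C29 and C30 ALDH- cells. Against a limit of 3 counts over the whole ALDH+ group, it was at least 168-fold lower there. The whole gene had only 84 counts in the ALDH+ group, of which 8.43 would belong to this transcript at its ALDH- share. Such a limit covers counting error only, and the split of reads between transcripts is an estimate by the authors' software. In the authors' deposited table the log2 change was -5.8 for the main transcript and -9.9 for this one.

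P2RY8 (ENSGALG00000016687) carries the P2Y name, but its known ligand in humans is a glutathione conjugate and not a nucleotide. It couples to the G protein subunit encoded by GNA13 and in human lymph nodes helps to hold B cells within germinal centres. It had 2.08, 3.57 and 1.78 CPM in the ALDH+ cells of C27, C29 and C30, against 38.5, 24.9 and 58.1 CPM in the ALDH- libraries. The groups were apart, with C29 the highest ALDH+ and the lowest ALDH- library. Its log2 change was -4.03 (SE 0.44), and the ALDH- level was 18.5, 6.99 and 32.7 times the ALDH+ level in C27, C29 and C30.

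P2RY1 (ENSGALG00000010357), the ADP receptor that raises calcium in platelets and many epithelia, behaved differently. It had 8.46, 11.1 and 4.40 CPM in ALDH+ cells of C27, C29 and C30, against 18.5, 8.22 and 14.7 CPM in the ALDH- libraries. The groups overlapped, and in C29 the ALDH+ library was 1.35 times the ALDH- one. The log2 change was -0.79 (SE 0.44), less than 2 SE from 0.

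The P2X channels were weaker or less divided. P2RX4 (ENSGALG00000003901), a calcium-permeable channel of the plasma membrane and lysosomes in many mammalian cells, macrophages included, had 22.6, 14.2 and 10.1 CPM in ALDH+ cells of C27, C29 and C30, against 47.9, 21.6 and 30.7 CPM in the ALDH- libraries. The ALDH+ library was lower in every line, but the groups overlapped because ALDH+ C27 lay just above ALDH- C29. Its log2 change was -1.09 with an SE of 0.40, and of 0.26 once the line was a block.

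P2RX1 (ENSGALG00000001573), a fast ATP channel of platelets, neutrophils and smooth muscle in mammals, rested on few counts. The ALDH+ cells of C27, C29 and C30 had 3, 11 and 3 counts (0.101, 0.497 and 0.121 CPM), against 42, 17 and 74 counts (1.59, 0.780 and 3.69 CPM) in the ALDH- libraries. The groups did not overlap, though in C29 the fractions were near each other, with an ALDH- level 1.57 times the ALDH+ level. The log2 change was -3.08 (SE 0.84).

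P2RX7 (ENSGALG00000003863), the channel that in mammals needs high ATP and leads to release of interleukin 1 beta from macrophages, was near the detection limit. It had 10, 14 and 9 counts (0.336, 0.632 and 0.363 CPM) in ALDH+ cells of C27, C29 and C30 and 35, 10 and 16 counts (1.33, 0.459 and 0.797 CPM) in the ALDH- libraries. The groups overlapped, C29 went the other way from C27 and C30, and the log2 change of -0.97 had an SE of 0.57. Of its 3 transcripts 1 held all the counts and the other 2 had under 0.01 in every library.

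The adenosine receptors each had a pattern of their own. ADORA3 (ENSGALG00000001462), an inhibitory receptor found on mast cells and granulocytes in mammals, had 4, 4 and 9 counts (0.134, 0.181 and 0.363 CPM) in ALDH+ cells of C27, C29 and C30, against 133, 238 and 564 counts (5.04, 10.9 and 28.1 CPM) in the ALDH- libraries. The groups were far apart. In both fractions C30 was highest, while C27 and C29 had equal counts in ALDH+ cells. The log2 change was -6.00 (SE 0.80), and the ALDH- level was 37.5, 60.5 and 77.3 times the ALDH+ level in C27, C29 and C30.

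ADORA2B (ENSGALG00000014182), the low-affinity receptor that raises cyclic AMP when adenosine is abundant, had 2.72, 2.44 and 11.9 CPM in ALDH+ cells of C27, C29 and C30, against 3.67, 3.49 and 8.67 CPM in the ALDH- libraries. The fractions overlapped, and both C30 libraries lay above the other 4, among which C27 and C29 overlapped. The log2 change was 0.11 (SE 0.69), and it was -1.01 without the ALDH+ library of C30 and 0.72 without the ALDH- library of C30.

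ADORA1 (ENSGALG00000000168), an inhibitory receptor best known from brain and heart, was not tested because of its low counts. It had 22, 9 and 0 counts in ALDH+ cells of C27, C29 and C30 and 17, 3 and 0 counts in the ALDH- libraries. Both C30 libraries were at 0, which allows up to 0.121 CPM in the ALDH+ and 0.150 CPM in the ALDH- library (3 counts). The fractions of C27 were alike, at 0.739 CPM in ALDH+ and 0.644 CPM in ALDH- cells.

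**Figure D2:**
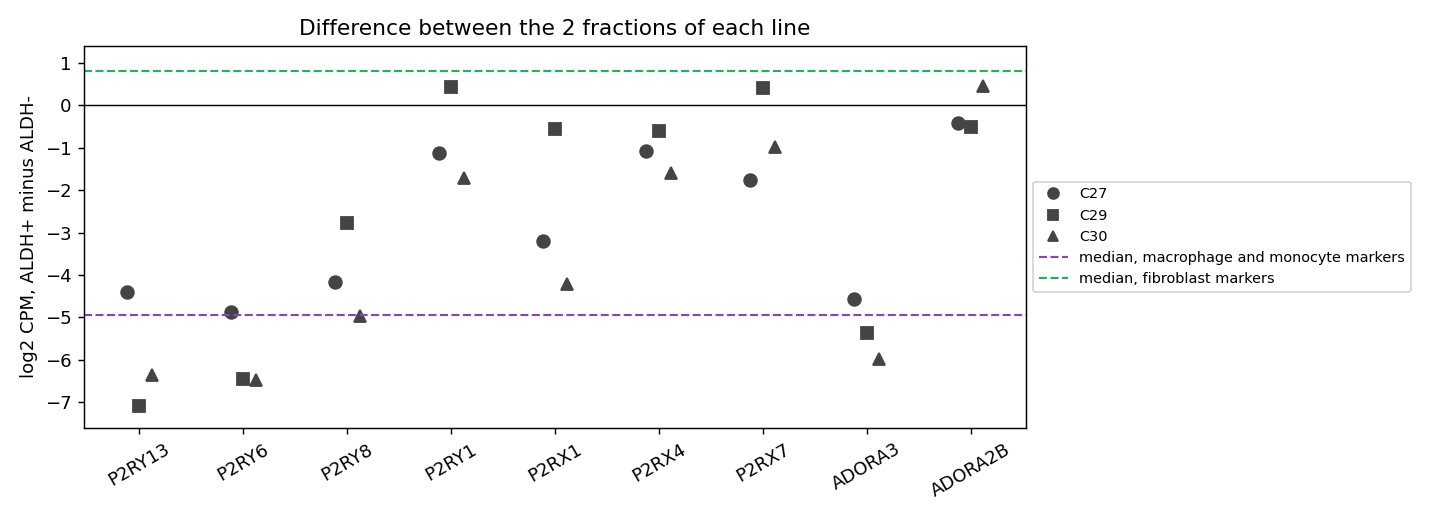
Difference in log2 CPM between the ALDH+ and the ALDH- library of each line for the 9 receptors that passed the filter, with dashed lines at the median change of macrophage markers (-4.95) and fibroblast markers (0.80). Points for P2RY13, P2RY6, P2RY8, P2RX1, P2RX4 and ADORA3 lie below 0 in all lines, while P2RY1 and P2RX7 in C29 and ADORA2B in C30 lie above it.

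The receptors that led in each fraction were therefore different on the TPM scale. In ALDH+ cells P2RX4 averaged 11.3 ± 5.62, P2RY1 8.84 ± 3.26 and ADORA2B 6.61 ± 6.38 TPM (SD, n = 3), followed by P2RY13, P2RY8 and P2RY6 at 1.77, 1.27 and 0.785 TPM and by ADORA1, P2RX1, P2RX7 and ADORA3, each under 1 TPM. Each receptor in that order overlapped the next in its range over the lines. Within every ALDH+ library, though, ADORA2B was above P2RY13, P2RY8 above P2RY6 and P2RY6 above ADORA1. The last 2 orders were close in some libraries. P2RY6 and ADORA1 had 14 and 9 counts in ALDH+ C29, and P2RY8 and P2RY6 had 1.32 and 1.24 TPM in ALDH+ C27. ADORA2B had 3.45, 2.44 and 13.95 TPM in C27, C29 and C30, against 1.68, 0.786 and 2.85 TPM for P2RY13. The order of the other neighbours changed between lines. In ALDH- cells P2RY13 came first at 90.6 ± 54.9 TPM and P2RY6 next at 34.8 ± 4.53 TPM (SD, n = 3), whose ranges overlapped. P2RX4 at 18.3, P2RY8 at 15.04, P2RY1 at 11.9, ADORA3 at 9.33 and ADORA2B at 4.22 TPM each overlapped the next. P2RX1 (1.73 TPM), P2RX7 (0.385 TPM) and ADORA1 (0.216 TPM) came last. The ranges were apart between P2RY6 and P2RX4, between ADORA2B and P2RX1, and between P2RX1 and P2RX7. The gap between P2RY6 and P2RX4 was narrow. In ALDH- C27 P2RY6, P2RY13 and P2RX4 were nearly equal, at 31.01, 30.91 and 30.63 TPM, so P2RY13 did not lead in that library.

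As a share of the summed TPM of the 10 receptors, P2RY6, P2RY8 and P2RY13 together made up 10.5% to 14.2% in ALDH+ libraries and 56.8% to 82.8% in ALDH- libraries. P2RY1, P2RX4 and ADORA2B together made up 83.5% to 85.2% in ALDH+ libraries and 11.7% to 38.0% in ALDH- libraries. ALDH- C27 stood between the others, with the smallest P2RY13 share of its group (22.01%). In ALDH+ C30 ADORA2B alone made up 44.2%.

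**Figure D3:**
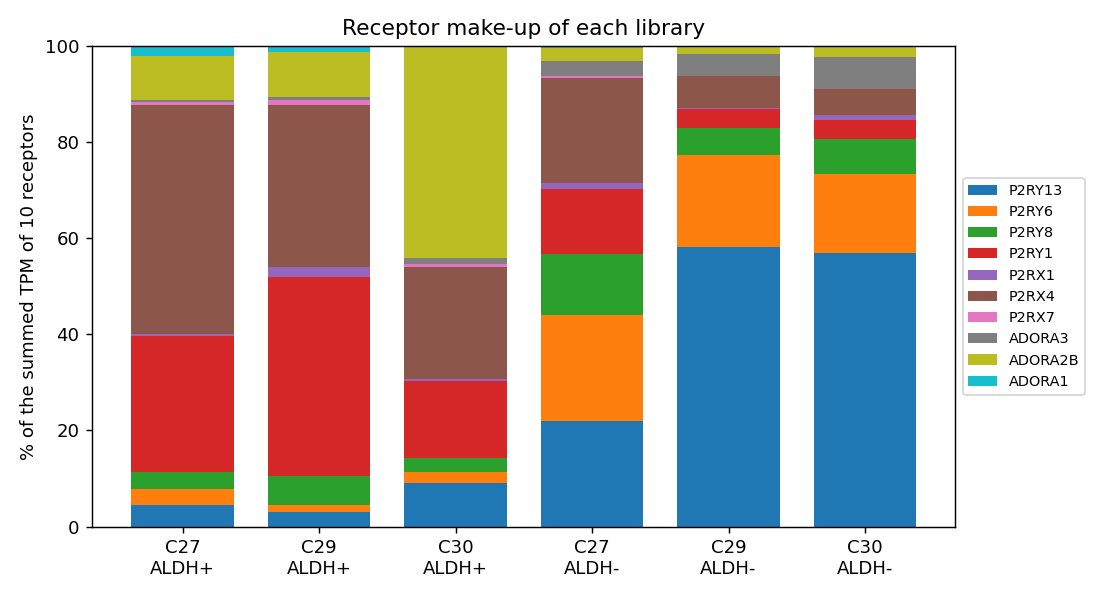
Share of each receptor in the summed TPM of the 10 receptors, in percent, for the 3 ALDH+ libraries on the left and the 3 ALDH- libraries on the right. P2RX4, P2RY1 and ADORA2B fill most of each ALDH+ bar (83.5% to 85.2%), and P2RY13, P2RY6 and P2RY8 most of each ALDH- bar (56.8% to 82.8%).

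Because macrophage markers moved with the same fractions, the receptors were also set against SPI1 within each library. These ratios of CPM are not corrected for length and are compared between libraries only. P2RY6 over SPI1 was 0.0795 to 0.147 in ALDH+ and 0.207 to 0.322 in ALDH- libraries, so P2RY6 was lower in ALDH+ cells by more than SPI1 was. P2RY8 over SPI1 went the other way, at 0.198 to 0.449 in ALDH+ and 0.129 to 0.168 in ALDH- libraries. Both statements are about SPI1 alone, the macrophage marker with the smallest p, and no other marker was used as divisor. The log2 changes of the 23 macrophage markers ran from -5.97 to -0.19, beside -5.99 for P2RY6 and -4.03 for P2RY8. With another marker the ratios could differ in size or direction. The ratio of P2RY13 overlapped (0.0852 to 0.319 in ALDH+, 0.112 to 0.532 in ALDH-), as did that of ADORA3 (0.0127 to 0.0552 in ALDH+, 0.0219 to 0.0748 in ALDH-). P2RX4 over SPI1 was 1.54 to 2.15 in ALDH+ and 0.0819 to 0.209 in ALDH- libraries, and P2RY1 over SPI1 was 0.669 to 1.39 in ALDH+ and 0.0392 to 0.0807 in ALDH- libraries. P2RX4 and P2RY1 thus differed far less between the fractions than SPI1 did. P2RX1 over SPI1 was 0.00955 to 0.0625 in ALDH+ and 0.00403 to 0.00982 in ALDH- libraries, on few counts. P2RY8 over P2RY6, a ratio of the receptors themselves, was 1.35 to 5.64 in ALDH+ and 0.399 to 0.812 in ALDH- libraries.

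**Figure D4:**
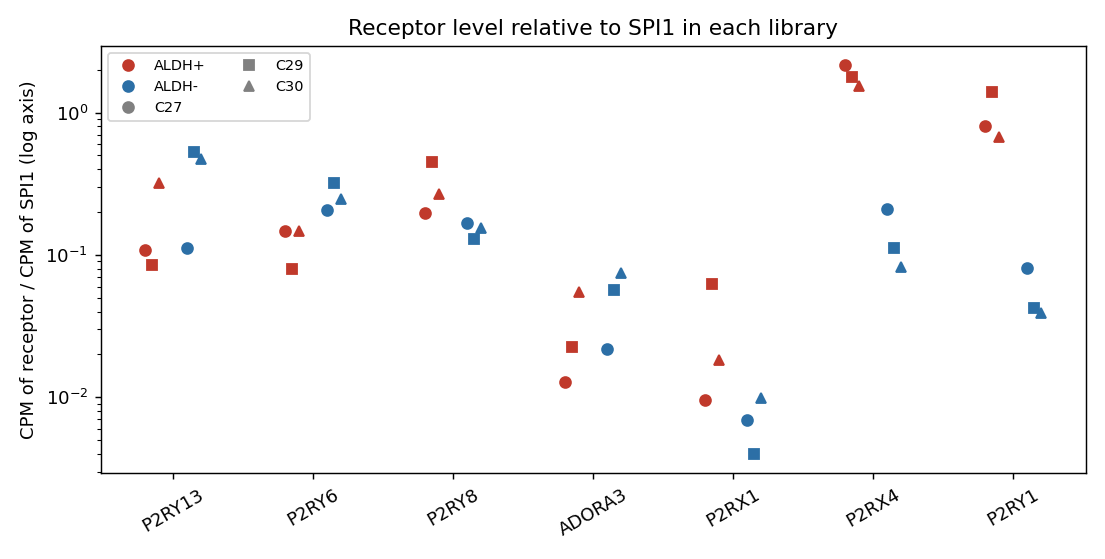
CPM of 7 receptors divided by the CPM of SPI1 in the same library, on a log axis, with ALDH+ libraries in red on the left and ALDH- libraries in blue on the right of each pair. P2RX4 and P2RY1 are higher relative to SPI1 in ALDH+ libraries (1.54 to 2.15 and 0.669 to 1.39), and P2RY6 is lower (0.0795 to 0.147).

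The genes whose log2 CPM ran most like each receptor over the 6 libraries were sought among 9779 named genes with a mean of at least 1 CPM. Such correlations rest on 6 points that share the ALDH groups, so high values come easily, and they are a description. P2RY6 ran with ATP6V0D2, a proton pump subunit of osteoclasts and macrophages, LAPTM5 and TREM2, a myeloid lipid receptor (r = 0.998 for each). P2RY13 ran with HAVCR1 and UEVLD (r = 0.998) and ABHD13 (r = 0.996). P2RY8 ran with DAPP1 (r = 0.998), an adaptor of B cell receptor signalling, and TNFAIP8L3 (r = 0.997). ADORA3 ran with PIK3AP1, an adaptor of B cells and macrophages, NRROS, a myeloid partner of latent TGF-beta, and RTFDC1 (r = 0.998 for each). A high r did not mean a like fold change. The log2 change was -0.91 for UEVLD, -0.46 for ABHD13, -1.14 for TNFAIP8L3 and -0.46 for RTFDC1. For the other companions named so far it was -5.49 to -3.02. The receptors without a wide gap had other companions. P2RX4 ran with NADK and the lysosomal protein PSAP (r = 0.987 for both) and SEMA4D (r = 0.986), P2RY1 with FIG4 (r = 0.986), ENKUR (r = 0.979) and TNS2 (r = 0.970), and ADORA2B with TOPBP1 (r = 0.993), MYO9B (r = 0.990) and SERPINI1 (r = 0.980). P2RX1, on few counts, ran with PDE1B (r = 0.986), WDR90 (r = 0.984) and WDFY2 (r = 0.982). Among the receptors themselves r was 0.97 for P2RY6 with P2RY13 and with ADORA3, 0.99 for P2RY13 with ADORA3, and -0.36 to 0.29 for ADORA2B with the other 8 tested.

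The lines were compared with the ALDH fraction in the model, a comparison that the choice of receptors did not use. By edgeR 0 of the 9 receptors differed between C27, C29 and C30 after adjustment over all genes, beside 0.367% of all genes called. Before adjustment 4 had a p under 0.05. No share of all genes is given for that cut, and the 0.367% does not apply to it, so nothing is read from this number. ADORA2B had means over both fractions of 3.20, 2.96 and 10.3 CPM in C27, C29 and C30 (adjusted p = 0.103), and ADORA3 of 2.59, 5.55 and 14.2 CPM (adjusted p = 0.106). P2RY13 had means of 13.4, 51.9 and 89.7 CPM in C27, C29 and C30 (adjusted p = 0.23), and P2RX4 of 35.3, 17.9 and 20.4 CPM (adjusted p = 0.22). The other 5 had adjusted p values of 0.66 to 0.894. The means of P2RY13 and ADORA3 came almost wholly from their ALDH- libraries. In ALDH+ cells P2RY13 was lowest in C29, at 1.14, 0.677 and 2.10 CPM in C27, C29 and C30. ADORA3 was highest in C30 in both fractions, but had only 4, 4 and 9 counts in ALDH+ cells of C27, C29 and C30. DESeq2, which called 7.46% of all genes, called ADORA2B (adjusted p = 0.00119) and ADORA3 (adjusted p = 0.00742). On log2(TPM + 1) limma called ADORA2B (adjusted p = 0.0335) and 9.32% of all genes. When either C29 library was left out, edgeR called 4 of the 10, P2RY13, ADORA1, ADORA2B and ADORA3, beside 12.2% of all genes without ALDH+ C29 and 15.1% without ALDH- C29. ADORA1 did not pass the filter on low counts in the main fit, which tested 12811 genes. It passed in these fits, which tested 13093 genes without ALDH+ C29 and 13119 without ALDH- C29. Its call rested on few counts, with 22 (ALDH+) and 17 (ALDH-) for C27 and 0 in each C30 library. Each of these fits kept only 1 C29 library. Whether P2RY13, ADORA1, ADORA2B and ADORA3 were called between lines thus depended on the tool and on the C29 libraries.

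The other receptors of the family, which were not used in choosing the 10, also included genes that fell. Their list was drawn up with earlier results of these data known, so it was not blind to this comparison. Of 5 tested, 3 fell in ALDH+ cells and 0 rose by edgeR (5.3% and 0.835% of all genes), with 0 higher at p under 0.05 before adjustment and 0 by DESeq2. P2RY14, the receptor for UDP-sugars, had 0.839, 0.723 and 0.283 CPM in ALDH+ cells of C27, C29 and C30, against 15.3, 5.69 and 9.82 CPM in the ALDH- libraries. Its log2 change was -4.05 (SE 0.58, edgeR adjusted p = 0.00532), with no overlap, and the adjusted p stayed under 0.05 whichever library was left out. P2RY14 had 25, 16 and 7 counts in ALDH+ cells of C27, C29 and C30. It thus passed the filter on low counts only with the help of its ALDH- libraries, where it was high. P2RY4, a receptor for UTP in humans, had 1.14, 0.903 and 1.53 CPM in ALDH+ cells of C27, C29 and C30, against 4.70, 11.1 and 34.4 CPM in the ALDH- libraries. It averaged 1.19 ± 0.319 CPM in ALDH+ and 16.7 ± 15.7 CPM in ALDH- cells (SD, n = 3 each), a log2 change of -3.80 (SE 0.74, adjusted p = 0.021). This call was lost when any of the ALDH+ libraries was left out (adjusted p = 0.0599 to 0.0891), and without ALDH- C30 the log2 change was -2.66. ADORA2A, the adenosine receptor that restrains activated leukocytes in mammals, passed the filter on low counts only through its ALDH- libraries, where it was high. It averaged 0.411 ± 0.199 CPM in ALDH+ and 2.92 ± 1.79 CPM in ALDH- cells (SD, n = 3 each), a log2 change of -2.80 (SE 0.64, adjusted p = 0.0422). Its call was lost when any library other than ALDH- C29 was left out, with adjusted p values of 0.0608 to 0.186, and without ALDH- C30 the log2 change was -2.17.

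The P2X channels outside the 10 did not pass the test. P2RX5 averaged 6.01 ± 1.79 CPM in ALDH+ and 3.56 ± 3.02 CPM in ALDH- cells (SD, n = 3 each; log2 change 0.75, SE 0.65, adjusted p = 0.552). P2RX6 averaged 4.42 ± 2.69 CPM in ALDH+ and 3.31 ± 1.95 CPM in ALDH- cells (SD, n = 3 each; log2 change 0.41, SE 0.61, adjusted p = 0.742). P2RX2 and P2RX3, channels of sensory neurons, had at most 8 counts in a library and were not tested.

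Several of these genes are neighbours. In the RefSeq gene order of chicken assembly GRCg7b, used here for gene order and overlap only, P2RY13 lies beside P2RY12 and near P2RY14. The span of P2RY13 overlaps those of P2RY12 and MED12L. P2RY12 is not named in the tables used here, so how reads of P2RY12 were assigned is not known here, and the identity of the P2RY13 counts is uncertain to that degree. MED12L itself had a log2 change of -0.13 (SE 0.31, adjusted p = 0.844). P2RX4 and P2RX7 are adjacent, with log2 changes of -1.09 and -0.97. P2RY6 lies 2 genes from P2RY2, which is not named in the tables. Whether strand was used in counting is not stated in the labels, and the span of P2RX4 overlaps that of CAMKK2 and the span of ADORA3 that of a gene with only a LOC identifier. Neither is named in the tables.

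The machinery around the receptors was followed in lists of 63 tested genes, the 5 receptors above included. Of these, 9 fell (14.3%, against 5.3% of all genes) and 0 rose by edgeR, where 10 had higher levels at p under 0.05 before adjustment and DESeq2 called 2 higher. Their median log2 change was -0.01, beside 0.00 for all genes. With the line as a block 14 fell (22.2%, against 7.6% of all genes) and 4 rose (6.3%, near the 5.92% of all genes). Of the 9 that fell without it, 3 were the receptors P2RY4, P2RY14 and ADORA2A. The lists were drawn up with earlier results of these data known, so these shares were not blind to this comparison. On log2(TPM + 1) the log2 changes of P2RY4, P2RY14, ENTPD1, LRRC8D and PLCB2 were smaller in size, at -1.94 to -1.54, and all 5 passed.

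Among 17 genes that break down, convert or carry nucleotides and adenosine, 2 fell and the median log2 change was -0.23. ENTPD1, the ectoenzyme CD39 that removes phosphates from ATP and ADP, had 2.01, 1.04 and 0.606 CPM in ALDH+ cells of C27, C29 and C30, against 15.2, 12.9 and 15.2 CPM in the ALDH- libraries. The ALDH- libraries were close to each other and the groups far apart (log2 change -3.55, SE 0.48, edgeR adjusted p = 0.00415). SLC29A3, a nucleoside transporter of lysosomes and mitochondria, averaged 8.17 ± 0.134 CPM in ALDH+ and 22.5 ± 1.11 CPM in ALDH- cells (SD, n = 3 each; log2 change -1.46, SE 0.24, adjusted p = 0.00959). It no longer passed with ALDH+ C27 left out (adjusted p = 0.0606) and on log2(TPM + 1) (adjusted p = 0.118). NT5E, the ectoenzyme CD73 that makes adenosine from AMP, had too few counts for the test, with 11, 4 and 9 counts in ALDH+ and 10, 0 and 1 in ALDH- cells of C27, C29 and C30. With the block ENPP3, a nucleotide pyrophosphatase, rose (1.09, adjusted p = 0.0333), and SLC29A1, the main adenosine transporter of the plasma membrane, fell (-1.59, adjusted p = 0.00763), as did ENPP4 (-0.90, adjusted p = 0.0408).

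Of 9 genes for ATP release 1 fell, with a median of 0.15. LRRC8D, a subunit of volume-regulated anion channels, averaged 9.69 ± 3.15 CPM in ALDH+ and 55.5 ± 15.8 CPM in ALDH- cells (SD, n = 3 each; log2 change -2.52, SE 0.34, edgeR adjusted p = 0.00429) and kept its call whichever library was left out. PANX1, the pannexin channel that lets ATP out of dying cells, averaged 1.71 ± 0.416 CPM in ALDH+ and 1.41 ± 0.406 CPM in ALDH- cells (SD, n = 3 each; log2 change 0.27, adjusted p = 0.766).

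Of 25 genes for G proteins, second messengers and receptor kinases 3 fell, with a median of 0.31. PLCB2, a phospholipase C of blood cells, had a log2 change of -3.20 (SE 0.57, edgeR adjusted p = 0.0141) and averaged 1.32 ± 0.577 CPM in ALDH+ and 12.2 ± 5.99 CPM in ALDH- cells (SD, n = 3 each). Its call was lost without ALDH+ C29 (adjusted p = 0.0634) or ALDH- C30 (adjusted p = 0.0587). ADCY7, an adenylyl cyclase of blood cells, had -2.79 (SE 0.65, adjusted p = 0.0434). It had 39, 7 and 12 counts in ALDH+ cells of C27, C29 and C30. The gene passed the filter on low counts only with the help of its ALDH- libraries. Its call was lost when any library other than ALDH+ C27 was left out, with values up to 0.177, and the log2 change was -3.59 without ALDH+ C27. The call was also lost with DESeq2 size factors in edgeR (adjusted p = 0.0515). GRK3, a kinase that turns receptors off, had -1.73 (SE 0.32, adjusted p = 0.0177). Its call was lost without ALDH+ C29 (adjusted p = 0.0559) or ALDH- C30 (adjusted p = 0.0836) and on log2(TPM + 1) (adjusted p = 0.2). With the block PLCB1 (1.52), ADCY2 (2.19) and ARHGEF12 (0.87) rose as well, while GNAI2 (-0.90) and GRK2 (-1.26) fell (adjusted p = 0.0216 to 0.0422).

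Of 8 genes tested around P2X7 and the inflammasome, 0 passed by edgeR without the block, 4 had p under 0.05 before adjustment (2 higher, 2 lower) and DESeq2 called 0. IL1B, the cytokine that follows P2X7 opening in mammalian macrophages, had 2.08, 1.94 and 20.2 CPM in ALDH+ cells of C27, C29 and C30, against 27.2, 20.9 and 335 CPM in the ALDH- libraries. C30 was highest in both fractions, and the ALDH- library was higher in every line. The log2 change of IL1B was -3.98 (SE 1.37, adjusted p = 0.151) without the block and -3.75 (SE 0.24, adjusted p = 0.000766) with it.

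**Figure D5:**
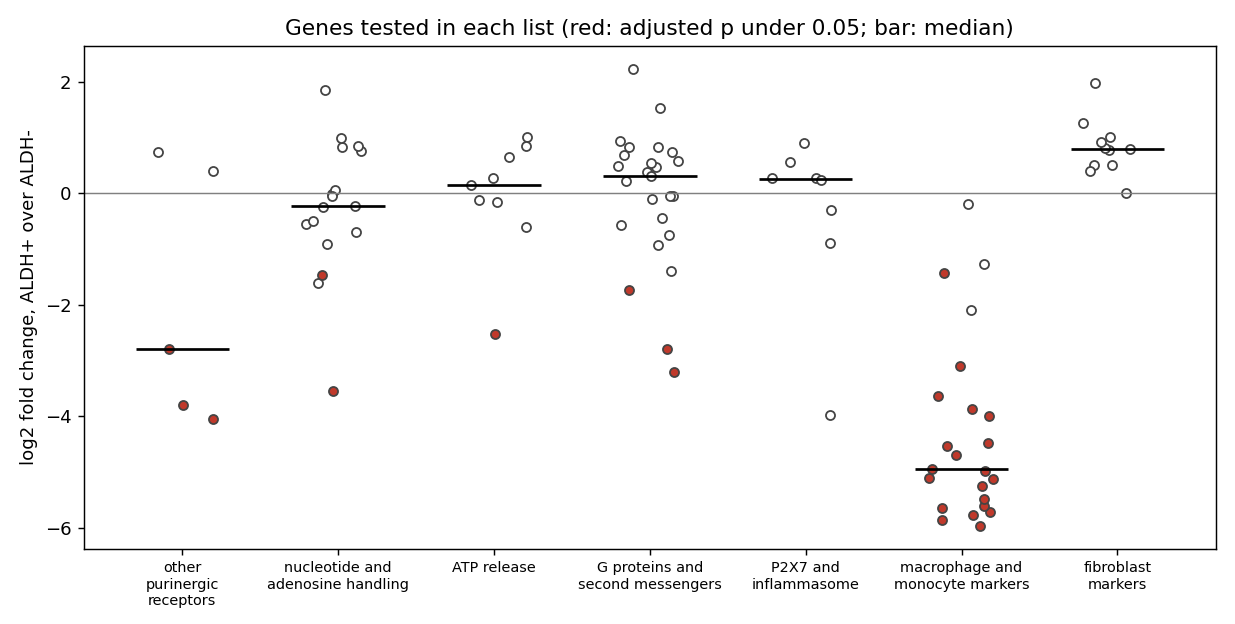
Log2 fold change (ALDH+ over ALDH-) of every tested gene in 5 lists around the receptors and in the macrophage and fibroblast marker lists, filled red where the edgeR adjusted p was under 0.05, with a bar at the median. Medians were -2.80 for the other receptors, -0.23, 0.15, 0.31 and 0.26 for the next 4 lists, -4.95 for macrophage markers and 0.80 for fibroblast markers.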

How the data were processed

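Both fractions of 3 lines gave 6 libraries. Per the submitters' processing notes, FastQC, Trimmomatic, HISAT2, kallisto, DESeq2 and the GRCg6a build were used, without versions. For each transcript the authors deposited TPM and estimated counts, which need not be whole. Their deposited comparison table holds a signal (counts scaled by size factor), a ratio, log2 fold changes, a Wald score and p-values, and transcript lengths in bases, per the file headers.

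Estimated counts of 28756 transcripts were summed to 16963 genes by gene ID and rounded to whole numbers. The 319 transcripts without a gene ID (0.28 to 0.33% of counts) were left out. The 10 receptors have 14 transcripts. Totals per library were 22170788 to 26747453. Main tests were quasi-likelihood tests of edgeR 4.0.16 (R 4.3.3, TMM, filterByExpr with a minimum count of 10 and total of 15, Benjamini-Hochberg adjusted p under 0.05 over all 12811 genes, two-sided). Alternatives used DESeq2 1.42.0 and limma 3.58.1 on log2(TPM + 1 or 0.1), with TPM of at least 1 as the filter; the code was tested on simulated data. SEs were derived from the F statistic. Both fractions come from 1 line, so the design is paired. Deviations of the 2 fractions from their group means correlated at r = 0.66, 0.17 and 0.49 in C27, C29 and C30.

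The receptors and lists were chosen with earlier results of these data known. The text names all 10 receptors, each listed gene that passed, the receptors outside the 10, up to 3 genes per cell type list by smallest p, and 3 genes most like each of the 8 receptors with a mean CPM of at least 1, of which 1 for P2RY8 is not reported here. NT5E, PANX1, IL1B, EPCAM, further cell type markers and genes called only with the block were named after their values were seen. All 10 symbols are in the RefSeq table (GRCg7b), used for names, gene order and overlap, with no coordinates printed. Reads shared with near-identical genes or overlapping antisense genes cannot be separated here.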

Additional observations from a re-analysis of the deposited data

Results flagged for a closer look

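In several genes the difference between the fractions (log2 CPM, ALDH+ minus ALDH-) had one direction in 2 lines and the opposite in the other one. In P2RY1 it was 0.43 in C29, against -1.12 in C27 and -1.72 in C30. In P2RX7 it was 0.40 in C29, against -1.75 in C27 and -0.98 in C30, on few counts. In ADORA2B it was 0.45 in C30, against -0.42 in C27 and -0.50 in C29. P2RX5 (-0.18) and P2RX6 (-0.42) were lower in ALDH+ in C27 alone. PANX1 (-0.35) was lower in ALDH+ in C29 alone, on 29 counts in ALDH+ and 37 in ALDH- cells of C29. EPCAM was at -0.02 in C29, but with 19 counts in both C29 libraries it had no clear direction there. MED12L (0.43) was higher in ALDH+ in C29 alone. With 1 library for each fraction and line, none of these differences between lines was tested.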

How the results depend on the processing

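Each value below is a number of genes past an adjusted p under 0.05. Without a block 786 genes passed, 107 higher and 679 lower in ALDH+ (13.6% higher). The paired fit with the replicate block gave 1732, 758 higher and 974 lower (43.8% higher), and 4 pathway genes higher and 14 lower, against 0 and 9. The block with DESeq2 size factors, chosen after seeing the data, gave 1772, 863 higher and 909 lower (48.7% higher), with 5 pathway genes higher and 13 lower. DESeq2 gave 1655, 626 higher and 1029 lower (37.8% higher), with 2 pathway genes higher and 14 lower. On log2(TPM + 1) and log2(TPM + 0.1) limma gave 268 and 238 genes higher (34.7% and 32.0%), with 5 pathway genes lower in both; the median over all genes was then 0.36 and 0.41, so TPM changes are relative to that shift. Leaving out 1 library gave 443 to 1123 genes, 13 to 370 higher (370 without ALDH- C27, 13 without ALDH- C29 or ALDH- C30) and 425 to 753 lower, with 4 to 8 pathway genes lower and 0 to 1 higher. Between lines 47 genes passed with edgeR, 7 with DESeq2 size factors in edgeR, 1194 with DESeq2, 1086 with limma on log2(TPM + 1), 269 with no filter and 45 to 1985 without 1 library (1593 without ALDH+ C29, 1985 without ALDH- C29). Of the receptors, 0 passed between lines with edgeR, 2 with DESeq2, 1 with limma and 0 to 4 without 1 library. As a description, since the receptors were chosen on this contrast, log2 changes over the fits were -6.37 to -4.35 for P2RY6, -4.39 to -2.78 for P2RY8, -6.76 to -4.87 for P2RY13 and -6.50 to -2.93 for ADORA3, the smallest in size on log2(TPM + 1). On deposited TPM and on library totals without TMM factors 6 receptors were again lower in all 3 lines. The cause of these changes was not tested. Low counts limit P2RX1, P2RX7 and ADORA1.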
